A study of Danio rerio with 2 samples.

Results

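The annexin genes anxa1a, anxa2a, anxa4 and anxa5b were followed across the cell classes of sorted zebrafish embryonic cells. These 4 genes, of 18723 gene rows in the filtered table, were listed by name, and each had at least 10 unique molecular identifiers (UMIs, each standing for 1 captured transcript). anxa4 had 1054 UMIs over both libraries, anxa2a had 930, anxa1a had 783 and anxa5b had 39. Near that limit in the same gene family, anxa1c had 12 UMIs, and anxa1b and anxa1d had 9 each. The genes were chosen by their measured levels across these cells in both libraries, so the levels by class below are a description and support nothing.

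Annexins are proteins that bind acidic phospholipids of membranes when calcium is present. They take part in membrane repair, vesicle traffic and the linking of membranes to the actin cytoskeleton, and they have been studied most in mammals. Melanoblasts are the precursors of black pigment cells, arise from the neural crest and move under the skin while they begin to make melanin.

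Both libraries came from AB wild-type embryos at 24 hours post fertilisation and held cells positive for the reporters mitfa:GFP and crestin:mCherry. mitfa is a gene of pigment cell precursors and crestin marks the zebrafish neural crest. 1 group of embryos was untreated and the other received ErbBi, and the labels do not spell out the agent, its dose or its duration. With 1 library per treatment, library and treatment cannot be told apart, no difference has a replicate check. Intervals are at 95% throughout and reflect counting error alone.

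The filtered table held 999 untreated cells with 7242348 UMIs (median 7099 per cell) and 348 ErbBi cells with 1113172 UMIs (median 2732.5). Cells were placed in 5 exclusive classes in a fixed order. Melanin-high cells had over 1% of their UMIs in dct, pmela and the genes TYRP1 (ENSDARG00000056151) and TYRP1 (ENSDARG00000029204). Of the cells left, gch2-high cells had over 2% in gch2, an enzyme gene of yellow pigment synthesis, and twist1a-high cells had over 0.05% and at least 2 UMIs in twist1a, a mesenchyme factor gene. foxd3-positive cells had at least 1 UMI of foxd3, a neural crest factor gene, and the remaining cells met none of these rules. In that order the classes held 404, 124, 83, 191 and 197 untreated cells and 64, 19, 126, 51 and 88 ErbBi cells. Over 1 rule was met by 200 untreated and 50 ErbBi cells, and 61 untreated and 5 ErbBi cells lay between 0.8% and 1.2% of melanin-gene UMIs. As the melanin rule came first, 132 of the 404 untreated and 28 of the 64 ErbBi melanin-high cells also met a later rule. The part of such cells in the ErbBi over untreated ratios was not tested. 6 cell barcodes occurred in both libraries, and leaving those cells out kept every call of the 4 annexins below. Calls of other genes were not recomputed without those cells.

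The melanoblast label was checked on markers that the rule did not use. tyr, which encodes the first enzyme of melanin synthesis, was 5.29-fold higher (4.62 to 6.07) in melanin-high than in other untreated cells and 6.38-fold higher (4.55 to 9.01) in the ErbBi library. MITF (ENSDARG00000003732), oca2, slc24a5 and slc45a2 were also at least 2-fold higher in both libraries, so 5 of 8 markers stood higher. Of all genes with at least 10 UMIs, 8.74% untreated and 8.96% in the ErbBi library were at least 2-fold higher with the interval beyond 1. kita and trpm1b were under 2-fold in both, and gpnmb was lower in untreated melanin-high cells, at a ratio of 0.315 (0.164 to 0.568). In that comparison 16.4% of all genes were at least 2-fold lower with the interval beyond 1.

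anxa1a (ENSDARG00000026726), whose mammalian counterpart limits inflammation through formyl peptide receptors, was concentrated in melanin-high cells. Its level, in UMIs per 1000000 UMIs of the class (CPM), was 210 (194 to 228) in untreated melanin-high cells. It was 41.1 (29.9 to 55.2) in the remaining, 36.1 (27.7 to 46.3) in the foxd3-positive, 15.1 (7.51 to 26.9) in the gch2-high and 14.0 (6.997 to 25.1) in the twist1a-high cells. Melanin-high cells held 82.8% of the 746 untreated anxa1a UMIs, so these cells supplied most of the transcripts found. Of all genes they held 2938855 of 7242348 untreated UMIs. In neighbouring places of this order, the ratio was 5.11 (3.76 to 7.11) for melanin-high over remaining cells and 2.40 (1.25 to 5.05) for foxd3-positive over gch2-high cells. The other neighbours did not differ beyond counting error.

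ErbBi-treated melanin-high cells had 124 CPM of anxa1a (80.9 to 181) from 26 UMIs. It had 34.2 CPM in gch2-high, 21.9 in remaining, 14.4 in foxd3-positive and 4.19 in twist1a-high cells, and these rest on 2, 5, 2 and 2 UMIs. Melanin-high cells again led, with 70.3% of the 37 UMIs, beside 209911 of 1113172 ErbBi UMIs of all genes. No pair of neighbouring classes differed beyond counting error, however.

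anxa2a (ENSDARG00000003216), the counterpart of a mammalian annexin that pairs with S100A10 and ties membranes to actin, had the same leading class. In the untreated library it stood at 237 CPM (220 to 255) in melanin-high cells. The other classes lay close together at 47.9 CPM (33.4 to 66.6) in gch2-high, 47.7 (35.5 to 62.7) in remaining, 41.9 (32.8 to 52.8) in foxd3-positive and 38.2 (25.8 to 54.6) in twist1a-high cells. Melanin-high over gch2-high cells gave 4.95 (3.52 to 7.16), and no other neighbours differed beyond counting error. Among ErbBi cells anxa2a had 129 CPM (84.8 to 187) in melanin-high, 34.2 in gch2-high, 26.3 in remaining, 20.9 in twist1a-high and 7.19 in foxd3-positive cells, the last from 1 UMI. Neighbouring ErbBi classes did not differ beyond counting error.

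anxa4 (ENSDARG00000036456), whose mammalian counterpart is best known from epithelial cells, was spread over most classes. In the untreated library it had 216 CPM (189 to 246) in remaining, 137 (124 to 151) in melanin-high, 132 (116 to 150) in foxd3-positive and 125 (100 to 153) in gch2-high cells. twist1a-high cells stood apart with 38.2 CPM (25.8 to 54.6). The steps beyond counting error were remaining over melanin-high cells, at 1.58 (1.34 to 1.86), and gch2-high over twist1a-high cells, at 3.26 (2.14 to 5.10). In the ErbBi library the order was 103 CPM in gch2-high, 95.3 in melanin-high, 87.8 in remaining, 86.3 in foxd3-positive and 31.4 in twist1a-high cells. There the foxd3-positive over twist1a-high ratio of 2.75 (1.17 to 6.29) was the sole step beyond counting error.

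anxa5b (ENSDARG00000016470), the counterpart of the mammalian phosphatidylserine-binding annexin A5, was sparse. It had 33 UMIs in the untreated and 6 in the ErbBi library. Untreated class levels ran from 1.87 CPM (0.227 to 6.76) in remaining to 6.47 (3.89 to 10.1) in melanin-high cells, and no neighbours differed beyond counting error. In the ErbBi library it had 3 UMIs in foxd3-positive, 2 in twist1a-high and 1 in melanin-high cells. It had 0 UMIs in gch2-high and remaining cells, where a count of 0 allows up to 51.3 and 13.2 CPM (3 counts).

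**Figure D1:**
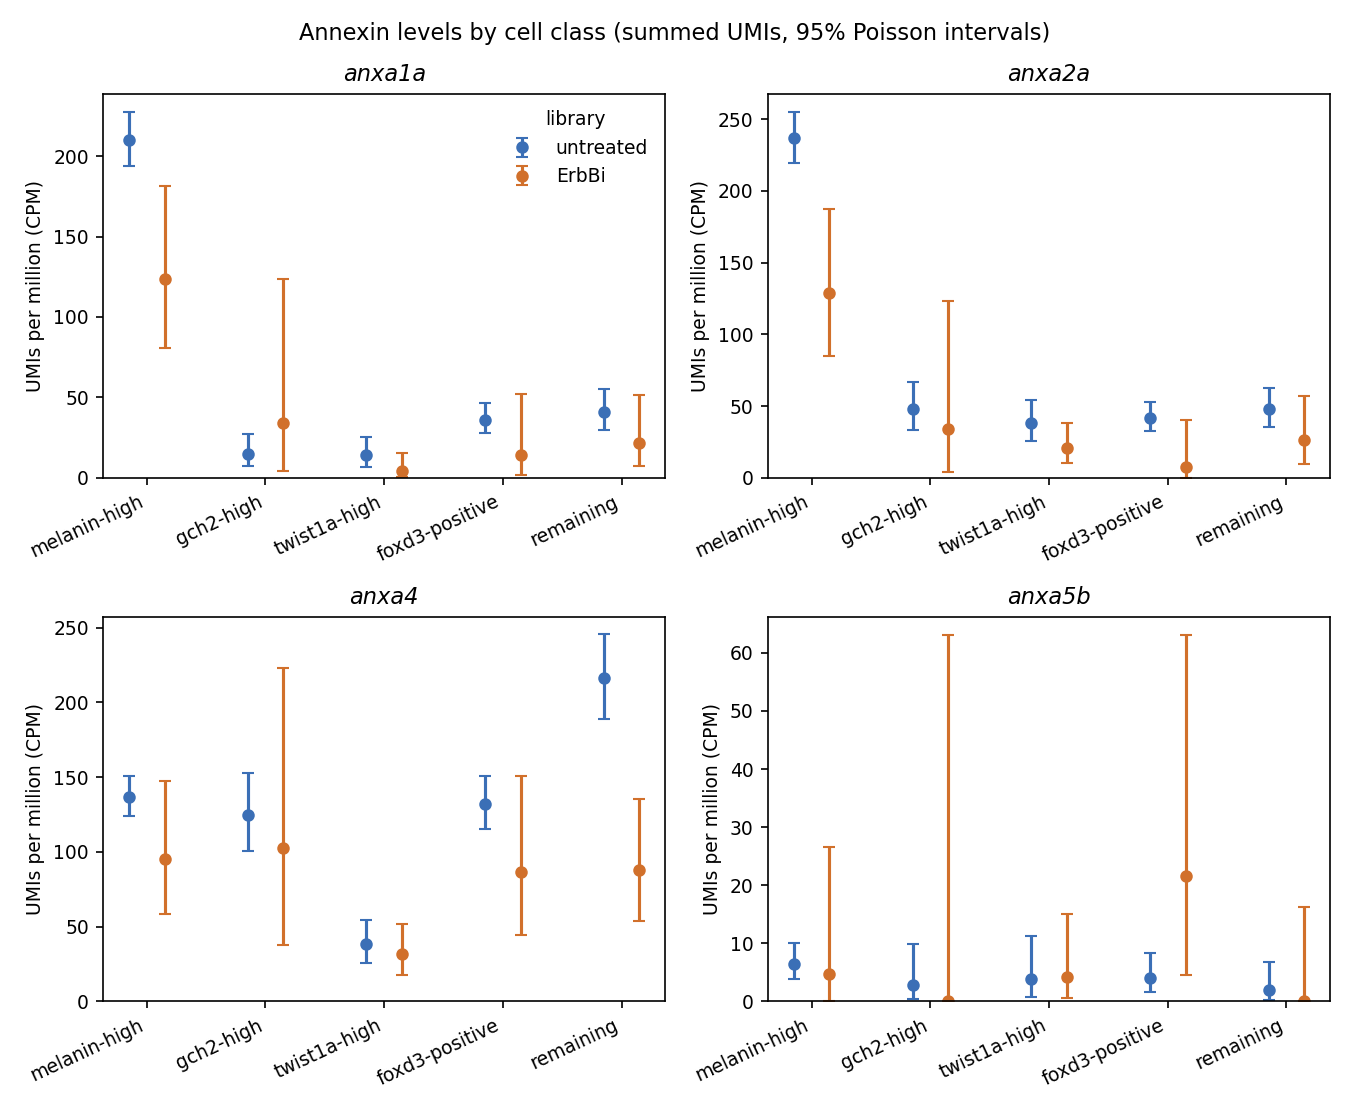
Levels of the 4 annexins in UMIs per 1000000 (CPM, linear axes from 0) by cell class, for the untreated (blue) and ErbBi (orange) library; points are summed UMIs of a class and bars are 95% Poisson intervals for counting error. anxa1a and anxa2a peak in melanin-high cells at 210 and 237 CPM untreated, while anxa4 is lowest in twist1a-high cells and anxa5b reaches at most 21.6 CPM.

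Each class was then set against all other cells of its library. A gene was called where the ratio was at least 2-fold and its interval lay beyond 1, given at least 10 UMIs. anxa1a and anxa2a were called higher in melanin-high cells, 2 of the 4 annexins, where 8.74% of all genes with 10 UMIs were called higher in the untreated and 8.96% in the ErbBi library. For anxa1a the ratio was 7.07 (5.84 to 8.62) untreated and 10.2 (4.86 to 22.8) in the ErbBi library. For anxa2a it was 5.42 (4.61 to 6.40) and 6.11 (3.28 to 11.6). The ErbBi values rest on under 30 melanin-high UMIs each. The genes were chosen by their levels in both libraries, so the same genes leading in both is no separate evidence. anxa4 was not called, at 1.02 (0.893 to 1.16) and 1.62 (0.919 to 2.76), and neither was anxa5b, at 1.99 (0.945 to 4.28) untreated and with under 10 UMIs in the ErbBi library.

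The calls in the other classes were all lower. In twist1a-high cells anxa1a, anxa2a and anxa4 were called lower in both libraries, against 11.9% of genes called lower untreated and 9.21% in the ErbBi library. anxa4 stood there at 0.260 of the other cells (0.174 to 0.373) untreated and 0.344 (0.181 to 0.615) in the ErbBi library. anxa1a and anxa2a were called lower in untreated gch2-high cells (7.24% of genes called lower), at 0.133 (0.0663 to 0.240) and 0.367 (0.254 to 0.515). They were also called lower in untreated foxd3-positive cells (5.56%), at 0.291 and 0.285, and in untreated remaining cells (2.83%), at 0.362 and 0.353. These comparisons share the melanin-high cells on their other side, so they are not separate evidence. In ErbBi foxd3-positive cells (2.04%) anxa2a was called lower at 0.156 (0.00386 to 0.913), from 1 UMI. With the melanin limit at 2% the remaining-cell ratios became 0.572 and 0.619 and were no longer called.

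The lower levels outside melanin-high cells were read against melanin-gene UMIs found in the same classes. anxa1a had 6.26 UMIs per 1000 melanin-gene UMIs in untreated melanin-high cells, 3.87 in gch2-high, 4.21 in twist1a-high, 9.17 in foxd3-positive and 9.64 in remaining cells. anxa2a had 7.05 in melanin-high cells and 10.7 to 12.3 in the other classes. anxa4 had 4.07 in melanin-high cells and 11.5 to 50.6 elsewhere. The class rule itself cuts on melanin-gene UMIs, at 33584.5 CPM in untreated melanin-high cells and 3329 to 4266 CPM in the other classes. A gene of even level therefore reads higher on this scale outside melanin-high cells. In the ErbBi library the values ran from 1.39 to 10.8 for anxa1a, from 1.98 to 10.8 for anxa2a and from 3.12 to 32.3 for anxa4. Outside melanin-high cells those of anxa1a rest on 2 to 5 UMIs a class, those of anxa2a on 1 to 10 and those of anxa4 on 6 to 20. The part of free RNA in these low levels was not tested.

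Within the melanin-high range, anxa1a and anxa2a stood higher in cells with a larger melanin-gene share. In untreated cells with 0 to 0.5%, 0.5 to 1%, 1 to 2%, 2 to 5% and over 5% of UMIs in the 4 melanin genes, anxa1a had 27.5, 42.2, 110, 224 and 350 CPM. anxa2a had 39.6, 66.3, 131, 220 and 504 CPM in the same bins. Cells over 5% exceeded cells at 1 to 2% by 3.17-fold (2.43 to 4.16) for anxa1a and 3.85-fold (3.05 to 4.89) for anxa2a. anxa4 stayed between 119 and 151 CPM over the 5 bins, with a ratio of 0.818 (0.583 to 1.13) for the same pair. The bins held 499, 96, 119, 224 and 61 cells with medians of 5806 to 7736 UMIs. These bins share their cells with the classes above and are another view of the same counts.

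The lowest 4 bins of the ErbBi library held 261, 23, 15 and 44 cells. anxa1a had 10.7, 32.3, 0 and 157 CPM, and anxa2a had 20.2, 32.3, 108 and 130 CPM. Of these 4 bins the 2 to 5% bin had the highest value for both genes, and the bin over 5%, with under 10 cells, is not given. The 15 cells at 1 to 2% had no anxa1a UMI, which allows up to 64.8 CPM (3 counts), so the course between bins was not detectable at this depth.

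**Figure D2:**
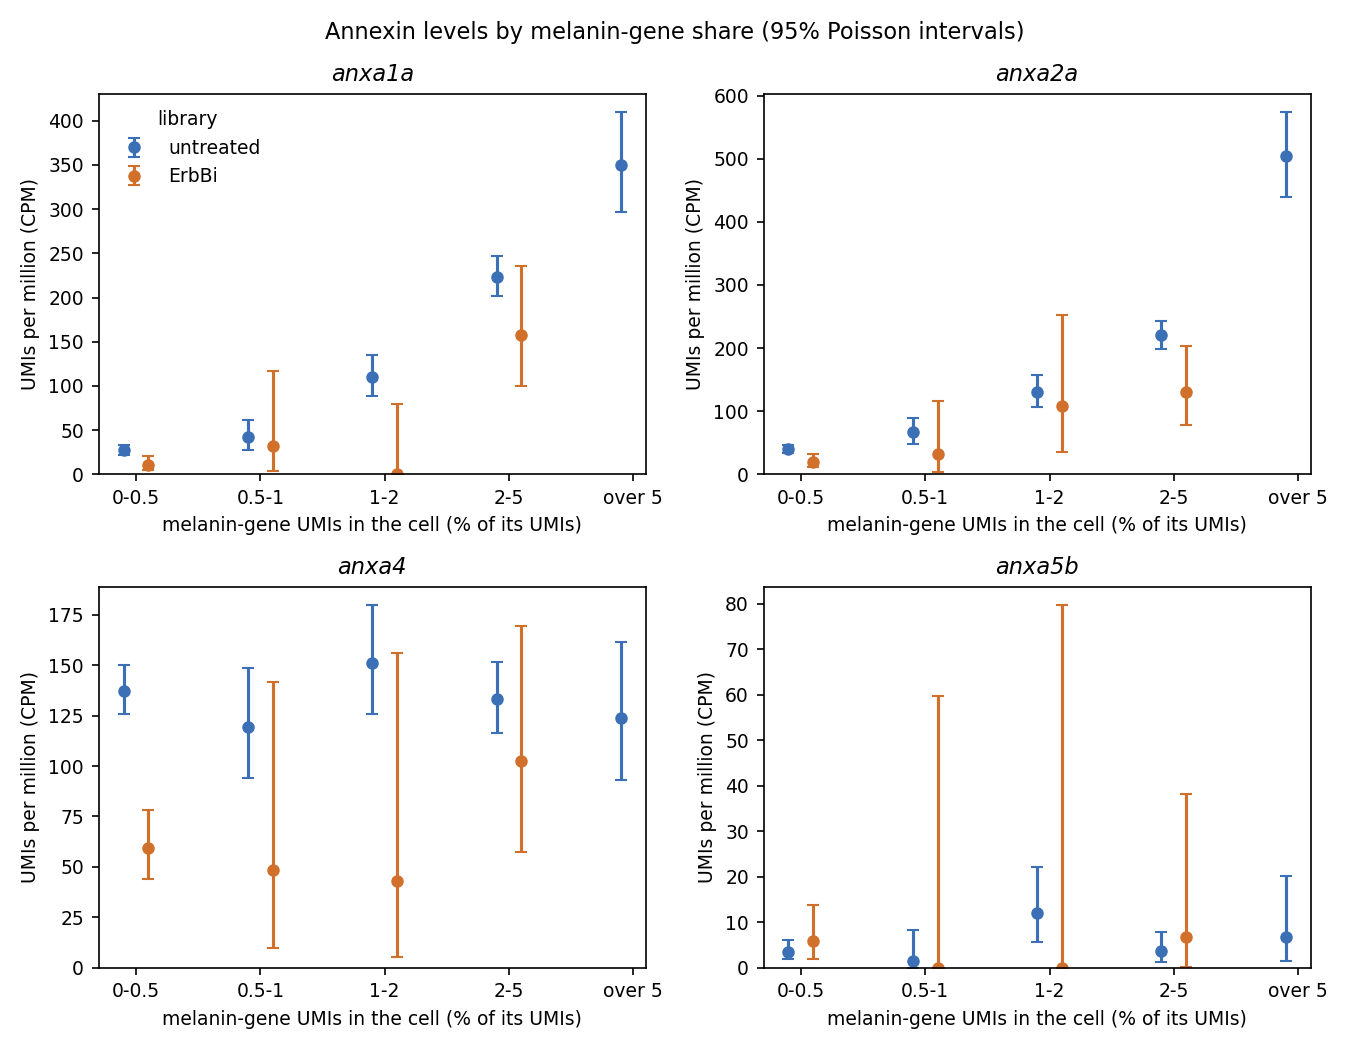
Levels of the 4 annexins in CPM (linear axes from 0) by the percent of a cell's UMIs in the 4 melanin genes, untreated in blue and ErbBi in orange, with 95% Poisson intervals; the ErbBi bin over 5% held under 10 cells and is not drawn. In untreated cells anxa1a goes from 27.5 to 350 CPM and anxa2a from 39.6 to 504 CPM across the bins, and anxa4 stays between 119 and 151 CPM.

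To set shares of positive cells side by side across depths, cells were thinned to 1900 UMIs and shallower cells left out. anxa1a was found in 108 of 383 untreated melanin-high cells (28.2%, 23.8 to 33.0), against 49.3% before thinning at a median depth of 7252 UMIs. In ErbBi melanin-high cells it was found in 12 of 54 (22.2%, 12.0 to 35.6), against 28.1% before thinning at a median of 2820. The thinned shares of the 2 libraries overlapped in their intervals. No class is known to lack annexins, so the class with the lowest share serves as background. For anxa1a that was 3 of 118 untreated gch2-high cells (2.54%, 0.527 to 7.25; median depth 5170). Among ErbBi foxd3-positive cells it was found in 0 of 40 after thinning, which allows a share of up to 7.50% with a UMI (3 counts), and in 2 of 51 before thinning (3.92%).

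anxa2a was found in 116 of 383 untreated melanin-high cells (30.3%, 25.7 to 35.2) after thinning. Its lowest untreated share was 4 of 79 twist1a-high cells (5.06%, 1.40 to 12.5), at a median depth of 9660 UMIs. anxa4 was found in 84 of 383 untreated melanin-high cells (21.9%), 25 of 118 gch2-high (21.2%), 38 of 190 foxd3-positive and 45 of 176 remaining cells (25.6%), with 7 of 79 twist1a-high cells (8.86%) lowest. As with the levels, melanin-high cells came first for anxa2a and twist1a-high cells last for anxa4. anxa5b was found in 2 of 383 untreated melanin-high cells and in at most 1 thinned cell of any other class.

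anxa1a and anxa2a tended to occur in the same untreated melanin-high cells. After thinning, anxa2a was found in 50 of 108 untreated melanin-high cells with anxa1a (46.3%, 36.7 to 56.2) and in 66 of 275 without it (24.0%, 19.1 to 29.5). anxa4 was found in 29 of 108 cells with anxa1a (26.9%, 18.8 to 36.2) and in 55 of 275 without it, with overlapping intervals. In ErbBi melanin-high cells anxa2a was found in 4 of 12 with anxa1a and 8 of 42 without it. Among untreated remaining cells these were 4 of 11 and 13 of 165, and among foxd3-positive cells 2 of 8 and 12 of 182. The intervals overlapped in each case. Untreated gch2-high and twist1a-high cells had 3 cells each with anxa1a after thinning, and 0 of these had anxa2a. Before thinning, 101 of 404 untreated melanin-high cells had neither anxa1a nor anxa2a. 41 cells had at least 5 anxa1a UMIs, 45 had at least 5 anxa2a UMIs and 21 had both. The counts of untreated cells describe 1 library. Both genes also stood higher in cells with a larger melanin-gene share, and the part of that share in the pairing was not tested.

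Some levels rested on few cells. 1 untreated remaining cell held 34 of the 231 anxa4 UMIs of its class, and its leading genes were sst1.2, fev, PAX6 (ENSDARG00000045936), nmbb and neurod1, genes of endocrine and nerve cells. 1 untreated melanin-high cell held 9 of the 33 anxa5b UMIs. It was among 14 untreated cells rich in epidermal markers, which together held 11 of those 33. That cell was led by icn with 247 UMIs, CALB2 (ENSDARG00000041062), txnb, gng13a and epcam. By contrast the highest anxa1a cell held 15 of 618 melanin-high UMIs and the highest anxa2a cell 19 of 696, and dct was among the leading genes of both.

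Epidermal markers moved with part of the anxa1a signal outside melanin-high cells. The epidermis and periderm list summed to between 204 and 1037 CPM over untreated classes and between 140 and 1101 CPM over ErbBi classes, highest in remaining cells. All 11 of its genes had a UMI in untreated remaining cells, and agr1 and krt5 were at 0 in ErbBi remaining cells. Cells with over 0.1% of UMIs in the list without cdh1 numbered 14 untreated and 7 ErbBi. 3 of them among untreated foxd3-positive cells held 25 of 62 anxa1a UMIs, and the class level was 21.9 CPM without them. 2 among untreated remaining cells held 10 of 44 anxa1a UMIs, and the level without them was 32.0 CPM. Without all such cells the untreated melanin-high over other ratio of anxa1a was 9.88 (7.92 to 12.5). In melanin-high against other cells, 4 of the 11 listed genes were called lower and 1 higher untreated, and 3 of 6 lower and 1 higher in the ErbBi library. Of all genes, 16.4% were called lower and 8.74% higher untreated, and 7.85% lower and 8.96% higher in the ErbBi library. The keratin gene krt4 was lower at 0.335 (0.287 to 0.388) and 0.309 (0.170 to 0.521), and cdh1, which encodes an epithelial cadherin, was higher at 2.66 (2.27 to 3.14) and 4.05 (2.42 to 6.76).

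The ErbBi library was then set against the untreated one. Over all cells anxa1a had 33.2 CPM against 103, anxa2a had 41.3 against 122, and anxa4 had 65.6 against 135. The ratios were 0.323 (0.225 to 0.449), 0.339 (0.246 to 0.455) and 0.484 (0.376 to 0.614). These 3 of 4 annexins were called lower, where 2.98% of genes were called lower. anxa5b was at 1.18 (0.405 to 2.86). With the cells left out by the authors' filter put back, anxa4 was at 0.512 and no longer called. The median log2 ratio in this comparison was 0.24 over genes with at least 10 UMIs and a UMI in both libraries. Genes at 0 in either library were left out of that median, and how far this moved it was not tested. Relative to that median the ratios were 0.272, 0.286 and 0.409.

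The make-up of the libraries moved with these values. Melanin-high cells were 40.4% of untreated and 18.4% of ErbBi cells, and twist1a-high cells were 8.31% and 36.2%. With the ErbBi class levels weighted by the untreated class shares of UMIs, the all-cell ratios were 0.590 for anxa1a, 0.520 for anxa2a and 0.634 for anxa4, and none was past 2-fold. The median depth also differed, at 7099 untreated and 2732.5 ErbBi UMIs per cell, and its part was not tested.

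Within melanin-high cells the ErbBi over untreated ratio was 0.589 (0.382 to 0.871) for anxa1a, 0.543 (0.355 to 0.797) for anxa2a and 0.697 (0.421 to 1.09) for anxa4. None of the 4 annexins was called, where 0.802% of genes were called lower. anxa5b, with 19 untreated UMIs and 1 ErbBi UMI, had too few to be called lower. The median log2 ratio was 0.20 over genes with a UMI in both libraries. The intervals of anxa1a and anxa2a lay below 1. Scaled to that median, which leaves out genes at 0 in either library, anxa2a passed the rule at 0.472. With the cell holding most UMIs of the gene left out of each library's class, anxa1a passed it at 0.499 and anxa2a at 0.489. Those cells held 5 of 26 ErbBi and 15 of 618 untreated anxa1a UMIs. For anxa2a they held 4 of 27 ErbBi and 19 of 696 untreated UMIs. The ErbBi side lost the larger share, which by itself lowers both ratios, so nothing is concluded from these values. The mesenchyme list summed to 81.3 CPM in untreated and 624 CPM in ErbBi melanin-high cells, with 8 of 8 and 5 of 8 genes found, and DLX2 (ENSDARG00000017174), barx1 and twist1b at 0 in the latter. The macrophage list summed to 15.99 and 66.7 CPM in the same cells, with 7 and 9 of 13 genes found. The part of these markers in the ratios was not tested.

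In the other classes the ErbBi values were mostly lower but poorly resolved. anxa4 was called lower in remaining cells at 0.406 (0.244 to 0.642), where 2.08% of genes were called lower. The erythroid list, with 3 genes found, summed to 2611 CPM in untreated remaining cells, and all 3 genes (alas2, hbae1.1 and hbae3) were at 0 in ErbBi remaining cells. The macrophage list summed to 39.3 CPM in untreated and 592 CPM in ErbBi remaining cells, with 9 and 11 of 13 genes found. The part of these markers in the ratio was not tested. anxa2a was called lower in foxd3-positive cells at 0.172 (0.00429 to 0.987), where 1.47% of genes were called lower, from 1 ErbBi UMI against 72 untreated. Without called doublets that interval reached past 1 and the call was lost. Of 21 comparisons of an annexin with at least 10 UMIs, 5 were called, all lower. For anxa1a in gch2-high cells the ratio was above 1, at 2.27 (0.245 to 10.4), from 2 ErbBi UMIs. For anxa5b in foxd3-positive cells it was also above 1, at 5.29 (0.883 to 23.2), from 3 ErbBi and 7 untreated UMIs.

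**Figure D3:**
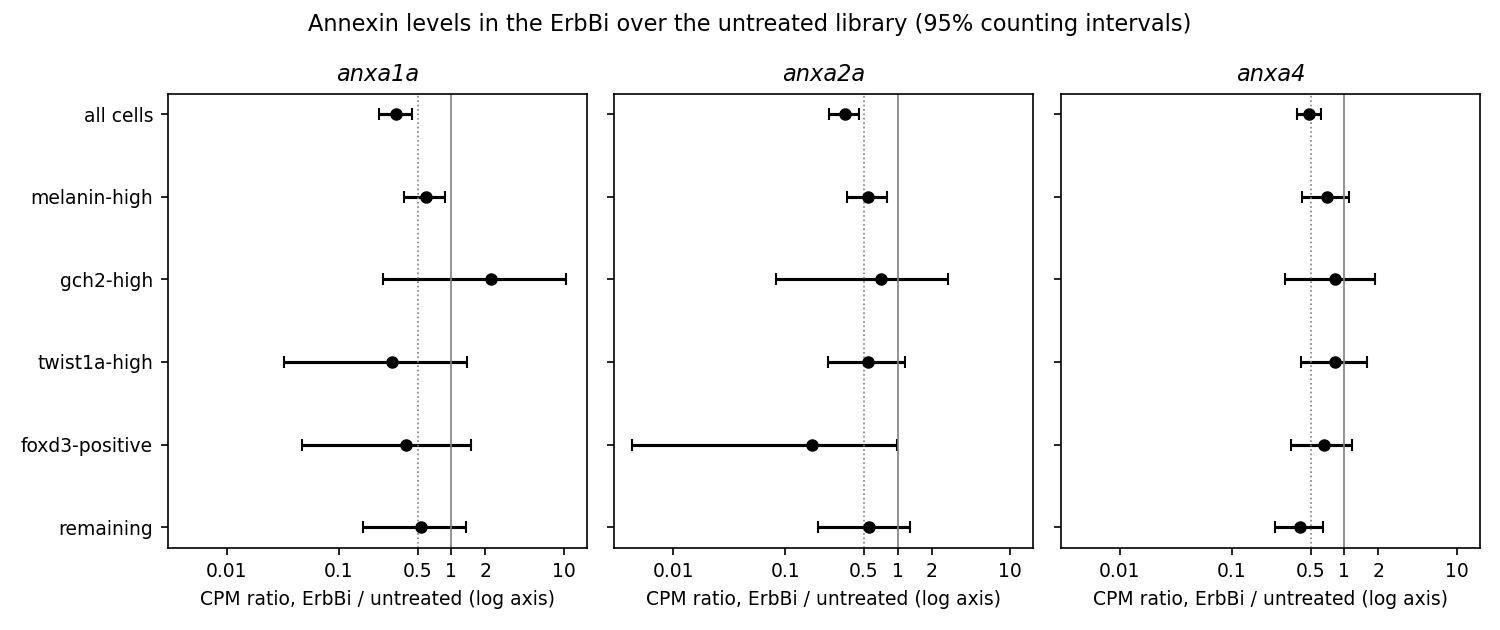
CPM ratio of the ErbBi over the untreated library (log axis) for anxa1a, anxa2a and anxa4 in all cells and in each class, with 95% counting intervals; the grey line marks 1 and the dotted line 0.5. Over all cells the points lie at 0.323, 0.339 and 0.484, and within melanin-high cells they lie closer to 1, at 0.589, 0.543 and 0.697.

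Of the other annexin genes listed, 7 had at least 10 UMIs and 5 had fewer. In untreated melanin-high cells 2 of the 6 with enough UMIs were called higher, anxa13 at 2.40 (1.94 to 2.98) and anxa13l at 2.50 (1.78 to 3.56), where 8.74% of all genes were called higher. ANXA11 (ENSDARG00000077383) was at 1.67, ANXA11 (ENSDARG00000002632) at 1.32, anxa6 at 1.88 and anxa3b at 0.943, none called. The median log2 ratio of these 6 genes was 0.82, beside -0.17 over all genes with 10 UMIs and a UMI on both sides. anxa13l was also higher in untreated gch2-high cells, at 2.34 (1.52 to 3.50), a class in which anxa1a was called lower. In the ErbBi library 1 of 5 was called higher in melanin-high cells, anxa3b at 2.37 (1.02 to 5.18), where 8.96% of all genes were called higher. The median log2 ratio of the 5 was 1.03, beside -0.11 over genes with 10 UMIs and a UMI on both sides. In twist1a-high cells 5 of 6 were called lower untreated and 2 of 5 in the ErbBi library, where 11.9% and 9.21% of all genes were called lower. How reads shared by close paralogues were counted, and its part in these values, was not tested.

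**Figure D4:**
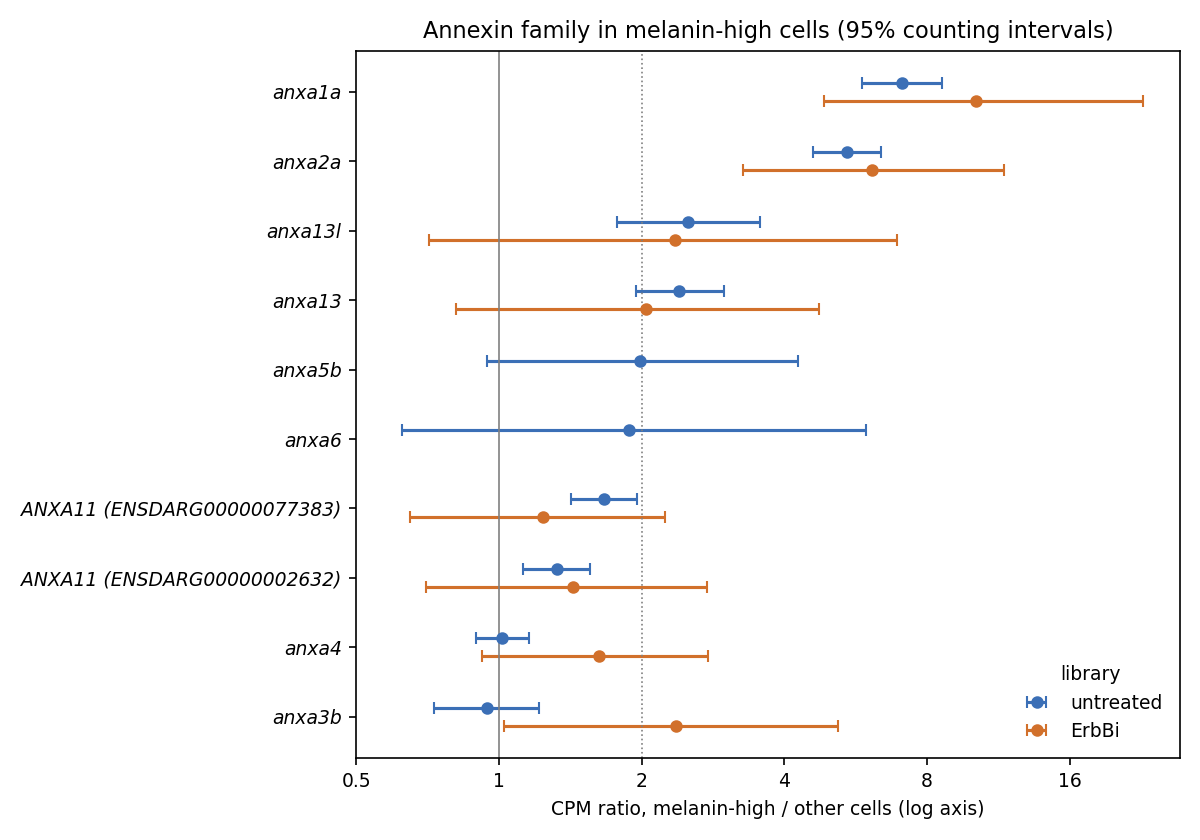
CPM ratio of melanin-high over other cells (log axis) for annexin genes with at least 10 UMIs in a library, untreated in blue and ErbBi in orange, with 95% counting intervals; the grey line marks 1 and the dotted line 2. anxa1a at 7.07 and anxa2a at 5.42 untreated lie above anxa13l at 2.50 and anxa13 at 2.40, and anxa4 lies at 1.02.

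A list of annexin partners and membrane repair genes was read in the same comparison. In untreated melanin-high cells 5 of 21 genes were called higher and 1 lower, where 8.74% and 16.4% of all genes were called. The highest were pdcd6, a calcium-binding adaptor of membrane repair, at 2.33 (2.101 to 2.58), and s100b, a small calcium-binding protein gene, at 2.28 (1.35 to 3.94). The calpain protease genes capn1a and capn2a stood at 2.22 and 2.11, and vps4b, an ATPase of membrane scission, at 2.24. icn2, of the S100 family, was lower at 0.0757 (0.0272 to 0.170). The median log2 ratio of the list was 0.61 beside -0.17 over genes with 10 UMIs and a UMI on both sides.

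Among ErbBi cells 4 of 15 partner genes were called higher and 1 lower in melanin-high cells, where 8.96% and 7.85% of genes were called. capn2a stood at 4.92 (1.56 to 15.9) and capn1a at 3.82 (1.28 to 11.2), and icn at 0.159 (0.0188 to 0.604). These rest on few UMIs, as capn2a and capn1a each had 38.1 CPM and icn 9.53 CPM in melanin-high cells. In that class 3 counts give 14.3 CPM. s100a10b, whose mammalian counterpart pairs with annexin A2, was not called in either library, at 1.33 (1.07 to 1.66) and 0.478 (0.0928 to 1.55). It had 55.8 CPM in untreated and 14.3 CPM in ErbBi melanin-high cells, a ratio of 0.256 (0.0523 to 0.762) that was called lower. The ErbBi level is that of 3 counts. In that comparison 3 of 19 partner genes were called lower and 0 higher, where 0.802% of all genes were called lower. The other 2 were icn at 0.0921 and vps4b at 0.483. The share over all genes includes genes with too few UMIs to be called lower. s100v1, dysf and vps4a had 0 CPM in ErbBi melanin-high cells and were not called. The untreated melanin-high cell led by icn held 247 icn and 32 s100a10b UMIs. Untreated melanin-high cells had 103 CPM of icn over 2938855 UMIs of all genes, so that cell held most icn UMIs of its class. The icn and s100a10b ratios without it were not tested, so the 3 calls are not a count of changes shared by many cells. Against other cells, capn1a, capn2a and pdcd6 were called higher in melanin-high cells of both libraries alongside anxa1a and anxa2a, and s100a10b was not.

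The genes most like each annexin were found by Pearson's r of log2(CPM + 10) over 10 points, the 5 classes of both libraries, among 4733 genes. The points of a library share its depth and its preparation, and the genes were picked for their r, so these are descriptions. For anxa1a the nearest were acsbg2 (0.97), TMEM243 (ENSDARG00000033179) (0.96) and psap (0.96). For anxa2a they were ppib (0.99), STX12 (ENSDARG00000044605) (0.96) and rab5c (0.94). For anxa4 they were pop7 (0.93), CYTH1 (ENSDARG00000021488) (0.93) and NPC2 (ENSDARG00000090912) (0.92). A high r reflects the order and spacing of the points and not the size of the differences. Over the 10 points ppib ran from 748 to 1316 CPM, beside 7.19 to 237 CPM for anxa2a. pop7 ran from 43.3 to 74.8 CPM, beside 31.4 to 216 CPM for anxa4. Between members, r was 0.88 for anxa1a and anxa2a, 0.56 for anxa1a and anxa4, and 0.38 for anxa2a and anxa4. For anxa5b the nearest were plekhj1 (0.90), coa4 (0.85) and med8 (0.84), which rest largely on the ErbBi foxd3-positive point, where anxa5b had 3 UMIs.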

How the data were processed

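The authors deposited whole-number counts of UMIs per gene and cell, unfiltered and filtered, from libraries made with 10x 3' version 2 reagents. The submitters' processing notes name Cell Ranger 2.1.1, FastQC 0.11.7 and GRCz11. Aligner settings and annotation release are not given in the sources used here, so no coordinates are printed. Cell names end in 1 or 2, read as untreated and ErbBi from the sample titles alone, and no column of sample values went unused (0). A name table gave symbols for 17967 of 18723 rows, and an Ensembl ID follows a symbol shared by paralogues.

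UMIs were summed per library and class and divided by the class total (CPM). CPM has exact Poisson, shares exact Clopper-Pearson and ratios exact conditional binomial 95% intervals. The precision is set by the UMIs of a class, and a count of 0 allows up to 3 counts. Genes with under 10 UMIs in a comparison were not called. Scrublet in scanpy 1.11.5 marked 7 untreated and 2 ErbBi cells as doublets, which were kept in the values given and left out as an alternative. Python 3.11.15, numpy 2.4.6, scipy 1.17.1, pandas 2.3.3 and matplotlib 3.10.9 were used. The ratio code was tested on simulated data.

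The members, classes, gene lists and rules were chosen with earlier results of these data known. The text names the 4 members, other annexins with at least 10 UMIs, the 3 genes most like each member among those with at least 100 untreated and 20 ErbBi UMIs, and examples from the lists, the highest and lowest ratios. Partner genes between these, and those set beside a result, were named after their values were seen. Alternatives covered scaling, cell weighting, the authors' filter, thresholds, single cells, doublets and thinning.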

Additional observations from a re-analysis of the deposited data

How the results depend on the processing

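No paired analysis was possible because there is 1 library on each side. The 17 class calls of the 4 annexins (of 35 comparisons with enough UMIs) kept their direction under every alternative that gave a value. Among ratios not called, 21 values of 12 results crossed 1, 10 of them of anxa5b. The untreated anxa1a ratio of melanin-high over other cells became 8.82 without the cell holding most anxa1a UMIs in each class, 5.83 at a melanin limit of 2% and 9.88 without epidermis-rich cells. At the 2% limit the untreated anxa5b ratio went from 1.99 to 0.915. The ErbBi over untreated ratios of all cells became 0.590 (anxa1a), 0.520 (anxa2a) and 0.634 (anxa4) at untreated class shares. In the unfiltered table anxa4 was at 0.512 and lost its call. At the 2% melanin limit anxa2a lost its ErbBi calls in twist1a-high (0.553) and foxd3-positive cells (0.288), and the latter also with foxd3 from 2 UMIs (0.350) and without cells meeting several rules (0.172). The mean of per-cell CPM has no counting interval, so the fold alone gave 12 ErbBi calls in place of 5 and 20 class calls in place of 17. Thinned to 1000 UMIs, melanin-high shares were 18.3% untreated and 9.38% ErbBi for anxa1a, and untreated 21.3% for anxa2a and 13.4% for anxa4, and the anxa5b ErbBi share was 0, as it was with a second random seed. Class shares as weights, shared barcodes and epidermis-rich cells were alternatives added after the data were seen. ErbBi values of few UMIs are limited by depth.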

Other observations

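The authors' filter left out 23 untreated and 149 ErbBi cells, which enter the values above only where the unfiltered table is named. The ErbBi cells left out had 10 anxa1a UMIs (98.0 CPM, 47.0 to 180), 7 anxa2a UMIs (68.6 CPM, 27.6 to 141) and 11 anxa4 UMIs (108 CPM, 53.8 to 193). In the ErbBi cells kept, anxa1a had 33.2 CPM (23.4 to 45.8), anxa2a 41.3 (30.3 to 55.1) and anxa4 65.6 (51.4 to 82.5). The untreated cells left out had 8 anxa1a UMIs (249 CPM, 107 to 490), against 103 CPM (95.8 to 111) in the cells kept. For anxa1a the intervals of cells left out and kept did not overlap in the ErbBi library. 23 of the ErbBi cells left out met the melanin-high rule and had 4 anxa1a UMIs (295 CPM, 80.4 to 755). The other 6 anxa1a UMIs came from 82 remaining cells left out (117 CPM, 43.0 to 255). Remaining ErbBi cells kept had 21.9 CPM (7.12 to 51.2), and these intervals overlap.

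The untreated remaining cells were divided by MITF (ENSDARG00000003732). The 87 cells with over 0.05% of UMIs in that gene had 210 CPM of anxa4 (172 to 255), and the other 110 cells had 221 CPM (184 to 262). anxa1a had 57.2 CPM (38.0 to 82.7) in the former and 27.6 CPM (15.8 to 44.8) in the latter, and the intervals overlap.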
